A study of Mus musculus with 2 samples.

Results

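The genes of glucose uptake and glycolysis and a set of classic targets of the hypoxia-inducible factors (HIF) were followed in the lung cells of normoxic and hypoxic mice. The members were the 35 genes of a fixed list of symbols, which was chosen with earlier results of these data known. All 35 were found among the 31053 genes of the count matrices. They took up 36 rows, because Aldoa carried a pair of gene IDs whose counts were summed. The list holds 2 glucose transporters, 10 genes of upper glycolysis, 6 of lower glycolysis, 8 genes that set the fate of pyruvate, and 9 other HIF targets.

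The lungs came from C57/B6 mice aged 2 to 4 months, kept in normoxia or exposed to hypoxia for 3 weeks. Dissociated cells were depleted of CD45+ and CD326+ cells on antibody-coated Dynabeads, which removes most leukocytes and epithelial cells, and the remainder went into 10x Genomics droplet libraries that read the 3′ end of transcripts. One library was deposited per condition. The study names several wild-type animals for hypoxia, and pooling was not stated in the sources used here. With 1 library per condition there was no replicate, so no difference below carries a test, and every interval covers counting error only, not the variation between animals.

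Glycolysis splits glucose into pyruvate in the cytosol and yields ATP without oxygen. When oxygen is low, HIF proteins escape degradation and bind short DNA elements, many of them with the letters ACGTG. This raises transcription of glucose transporters, glycolytic enzymes, lactate dehydrogenase A and genes of mitophagy and collagen maturation. Lung endothelial cells (ECs) are known to be glycolytic even with oxygen at hand. The lung capillary bed holds a pair of EC types, the aerocytes (Car4 and Ednrb), which lie at the gas exchange surface, and the general capillary cells (Gpihbp1 and Plvap), which can renew the bed.

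After filtering, 1348 normoxia cells with 5173361 UMIs (unique molecular identifiers, each counting 1 captured transcript) and 689 hypoxia cells with 2294966 UMIs remained. The cells formed 28 clusters, and 17 were EC-like, with 7 to 11 of 11 EC markers detected in each. EC-like cells numbered 846 in normoxia and 595 in hypoxia. Of these, 644 and 495 were general capillary-like, 120 and 59 aerocyte-like, 54 and 20 venous-like, 15 and 13 arterial-like, and 11 and 4 lymphatic-like. Fibroblast-like cells numbered 191 and 36. The libraries also differed apart from the members. Across EC-like cells, 12 immediate-early genes such as Fos, Jun and Egr1, which dissociation is known to induce, summed to 22617 counts per 1000000 UMIs (CPM) in normoxia and 7317 CPM in hypoxia, and 12 of 12 were lower in hypoxia. The median mitochondrial share of EC-like cells was 2.57% and 1.15%. The 4 haemoglobin genes summed to 26.3 and 116 CPM. The part of these differences in the results below was not tested except where a value is given. The members were kept out of the genes used for clustering.

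Transcripts of glycolysis were more abundant in the EC-like cells of the hypoxia library. The 19 glycolysis members (transporters, pathway enzymes and lactate dehydrogenases, without the regulator Pfkfb3) summed to 1137 CPM in normoxia (95% exact Poisson interval 1102 to 1173) and 2583 in hypoxia (2515 to 2653). The hypoxia to normoxia ratio was 2.27 (exact conditional binomial interval 2.18 to 2.37). The 9 other HIF targets summed to 570 and 827 CPM, a ratio of 1.45 (1.36 to 1.55). Without Gapdh, which alone gave 834 and 1059 of the UMIs, the glycolysis ratio was 2.30. Several of these genes, Gapdh and Aldoa among them, have processed pseudogenes or near-identical relatives, and their counts are uncertain to that extent.

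Of the 35 members, 26 had at least 50 UMIs over both libraries in EC-like cells. A ratio of at least 1.5, a threshold of size and not of significance, was reached by 14 of them, against a background of 7.90% of the 8738 genes with that many UMIs. In the other direction 1 member, Pdk1, passed the same fold, against a background of 9.95%. The other 11 lay between. Of the 14, Eno1, Gpi1, Hk1, Ndrg1 and P4ha1 fell under 1.5 in at least 1 alternative. Slc2a1 gave a value in only 7 alternatives, against 10 for Bnip3 and the rest of the 14. The median ratio was 1.56 over the 26 members and 1.02 over all 8738 genes. The 3 largest member ratios, those of Bnip3, Pfkl and Ldha, lay at percentiles 99.9, 99.6 and 99.4 of all genes.

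**Figure D1:**
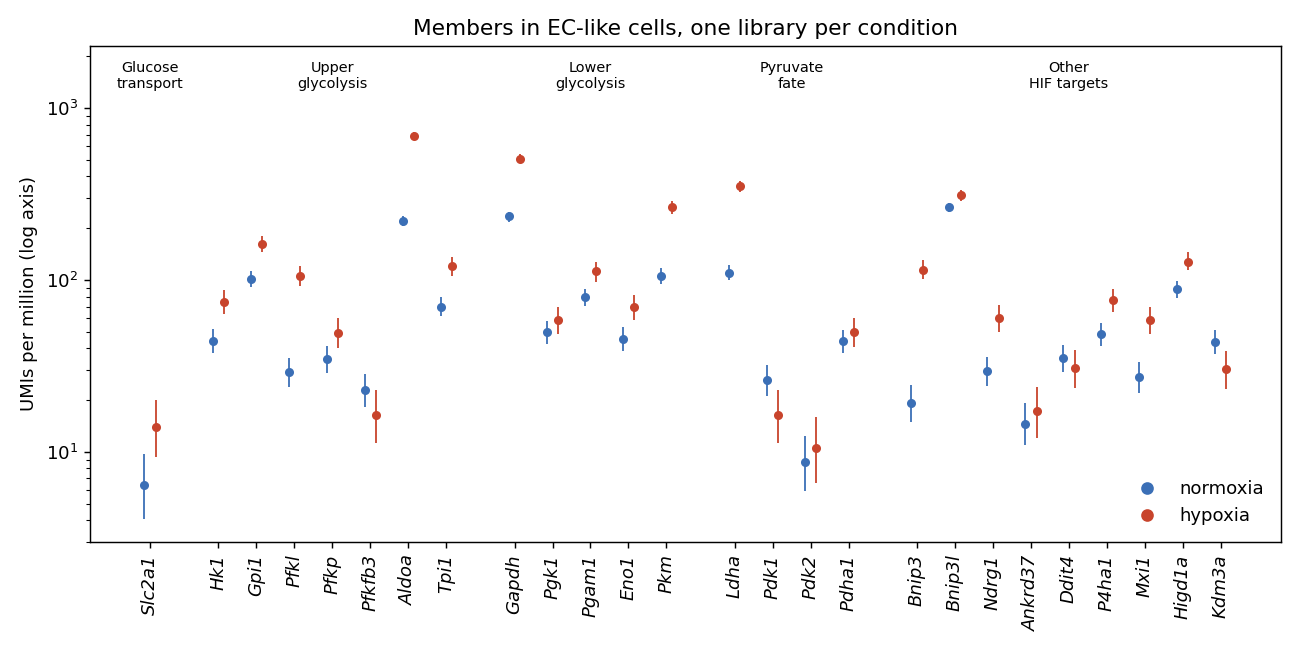
Level of each member with at least 50 UMIs in EC-like cells, in CPM on a log axis, in the normoxia library (blue) and the hypoxia library (red). Bars are 95% exact Poisson intervals, which cover counting error only. Aldoa went from 220 to 688, Ldha from 110 to 350 and Bnip3 from 19.3 to 115 CPM, while Pdk1, Pfkfb3, Kdm3a and Ddit4 were the 4 members with a lower value in hypoxia.

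Glucose enters ECs mainly through the transporter Slc2a1 (GLUT1). It was counted 23 times in the normoxia library and 29 times in the hypoxia library, or at 6.44 and 13.9 CPM (ratio 2.16, 1.21 to 3.90). The higher-affinity transporter Slc2a3 had 5 and 0 UMIs in EC-like cells. A count of 0 there allows up to 1.44 CPM (3 UMIs) in the hypoxia library, against 1.40 CPM in normoxia, so no difference was detectable at this depth.

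In upper glycolysis, 5 of the 7 genes with at least 50 UMIs passed the fold upwards, against the EC-like background of 7.90%. Hexokinase Hk1, which traps glucose in the cell, had 158 and 156 UMIs, or 44.3 and 74.8 CPM (ratio 1.69, 1.35 to 2.12). Its inducible relative Hk2 had 2 and 1 UMIs. The isomerase Gpi1 had 362 and 339 UMIs, or 101 and 162 CPM, a ratio of 1.60 (1.38 to 1.86).

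Phosphofructokinase catalyses the committed step of the pathway. Its liver-type subunit Pfkl had 104 UMIs in normoxia and 222 in hypoxia, or 29.1 and 106 CPM. The ratio was 3.65 (2.88 to 4.66). The platelet-type subunit Pfkp, with 123 and 103 UMIs, had a ratio of 1.43 (1.09 to 1.88), and the muscle-type subunit Pfkm had 13 and 14 UMIs. The Pfkl interval lies above that of Pfkp. Pfkfb3, which makes the allosteric activator of phosphofructokinase, had 82 and 34 UMIs, or 23.0 and 16.3 CPM. Its ratio was 0.709 (0.461 to 1.07), an interval that includes 1.

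Aldolase A (Aldoa), which splits the phosphorylated sugar, had 786 UMIs in normoxia and 1435 in hypoxia, or 220 and 688 CPM. Its ratio was 3.12 (2.86 to 3.41), and the UMIs came from 439 and 398 cells. The brain-type aldolase Aldoc had no UMI in EC-like cells of either library. Triose phosphate isomerase, Tpi1, had 250 UMIs in each library, which at the lower depth of the hypoxia library is a ratio of 1.71 (1.43 to 2.05).

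In lower glycolysis, 3 of 5 genes with enough UMIs passed the fold upwards, against the EC-like background of 7.90%. Gapdh, the dehydrogenase often used as a housekeeping reference, had 834 and 1059 UMIs, or 234 and 507 CPM, a ratio of 2.17 (1.98 to 2.38). Pkm, the pyruvate kinase that closes the pathway, had 377 and 552 UMIs, or 106 and 265 CPM, a ratio of 2.50 (2.19 to 2.86). Eno1, enolase, had 162 and 145 UMIs, or 45.4 and 69.5 CPM, a ratio of 1.53 (1.22 to 1.93). The Eno1 ratio was 1.17 pooled over the EC-like clusters shared by the libraries. The kinase Pgk1 and the mutase Pgam1 stand between Gapdh and Eno1 in the pathway. Pgam1 had a ratio of 1.41 (1.18 to 1.68), and Pgk1 one of 1.18 (0.928 to 1.49), with 177 and 122 UMIs. The neuronal enolase Eno2 had no UMI in these cells.

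The genes that decide the fate of pyruvate did not move as one. Ldha, which turns pyruvate into lactate, had 394 and 730 UMIs, or 110 and 350 CPM, a ratio of 3.17 (2.80 to 3.59), in 256 and 309 cells. Pdk1, a kinase that shuts the pyruvate dehydrogenase complex and is itself a textbook HIF target, had 93 and 34 UMIs, or 26.1 and 16.3 CPM. Its ratio was 0.625 (0.409 to 0.936), at percentile 7.72 of all genes, and it turned to 1.54 when ratios were pooled over the 9 EC-like clusters shared by the libraries (10 cells or more from both). The kinase Pdk2 (31 and 22 UMIs, ratio 1.21) and Pdha1, a subunit of the complex (157 and 104 UMIs, ratio 1.13), had intervals that include 1. The Pdha1 ratio turned to 0.711 pooled over the shared clusters and to 0.622 (0.387 to 0.960) without 3 clusters that came mostly from the hypoxia library. Pdk4, Ldhb and the lactate transporter Slc16a1 each had 7 UMIs or fewer over both libraries. The lactate exporter Slc16a3 was below the 50-UMI minimum with 2 normoxia and 21 hypoxia UMIs (ratio 18.0, 4.39 to 158), and is singled out after its values were seen.

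Among the 9 other HIF targets, all of which had at least 50 UMIs, 4 passed the fold upwards and none downwards. The EC-like background was 7.90% upwards and 9.95% downwards. Bnip3, a receptor that marks mitochondria for mitophagy, had 69 UMIs in normoxia and 241 in hypoxia, or 19.3 and 115 CPM. Its ratio of 5.98 (4.55 to 7.93) was the largest of the 26. Its relative Bnip3l had 946 and 648 UMIs, or 265 and 311 CPM, a ratio of 1.17 (1.06 to 1.30). The pair of related receptors thus differed in ratio beyond counting error.

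Mxi1, which competes with MYC for its partner MAX, had 97 and 122 UMIs, or 27.2 and 58.5 CPM, a ratio of 2.15 (1.63 to 2.84). Ndrg1, a stress-responsive gene, had 105 and 125 UMIs, or 29.4 and 59.9 CPM, a ratio of 2.04 (1.56 to 2.67). P4ha1, the catalytic subunit of collagen prolyl hydroxylase, had 172 and 159 UMIs, or 48.2 and 76.2 CPM, a ratio of 1.58 (1.27 to 1.97). The others did not reach the fold. They were Higd1a, a mitochondrial membrane protein (1.46, 1.23 to 1.72), Ankrd37, an ankyrin repeat protein, with 52 and 36 UMIs, or 14.6 and 17.3 CPM (1.18, 0.752 to 1.85), the mTORC1 inhibitor Ddit4 (0.876, 0.638 to 1.19) and the histone demethylase Kdm3a (0.695, 0.510 to 0.938).

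Many HIF response elements hold the letters ACGTG, so the promoters of the members were searched for them on both strands. The words searched were ACGTG and CACGT. Other forms of the element, such as GCGTG, were not searched. RefSeq promoters on GRCm38.p6, from 250 bases before to 50 after a start site, were found for 32 of 35 members, with 50 start sites in all. The palindrome CACGTG holds both words and was counted as 1 match. ACGTG was present in 25 of the 50 member promoters and in 19.6% of all 32851 promoters. These sets were not matched for base composition or for expression, and the part of either in the difference was not tested. Of the 13 members past the fold upwards that had a promoter, 9 held a match at one start site or more. Of the 11 members with a promoter and at least 50 UMIs that did not pass it, 7 did. These are counts of genes, and the like share over all genes was not counted. By promoter, 11 of 22 held a match in the first group and 8 of 16 in the second. Among other HIF targets that are no member, 15 of 33 promoters held a match. A match describes letters, not binding, and a promoter without a match can hold another form of the element. The stretches below run 5′ to 3′ from 180 to 31 bases before the start site, overlap no annotated exon, and carry the matched letters in capitals. Ldha, Bnip3 and Aldoa show members with a large ratio and a match, and Pgk1 a member with 2 matches and a ratio of 1.18. Pfkl is a member with a ratio of 3.65 and neither searched word in this window. The Pfkl stretch does hold GCGTG, the form that was not searched, and so does the Bnip3 stretch. Its lack of a match therefore covers the searched words only.

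Ldha: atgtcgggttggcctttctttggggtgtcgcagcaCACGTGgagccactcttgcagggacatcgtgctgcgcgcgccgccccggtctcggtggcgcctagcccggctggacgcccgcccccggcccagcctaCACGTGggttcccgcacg

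Bnip3: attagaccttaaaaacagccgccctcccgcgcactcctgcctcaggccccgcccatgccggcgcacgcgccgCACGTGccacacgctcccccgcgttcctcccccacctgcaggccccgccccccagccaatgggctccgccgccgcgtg

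Aldoa: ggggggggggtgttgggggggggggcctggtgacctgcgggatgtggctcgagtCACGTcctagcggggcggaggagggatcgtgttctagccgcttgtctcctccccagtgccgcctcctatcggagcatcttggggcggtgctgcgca

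Pgk1: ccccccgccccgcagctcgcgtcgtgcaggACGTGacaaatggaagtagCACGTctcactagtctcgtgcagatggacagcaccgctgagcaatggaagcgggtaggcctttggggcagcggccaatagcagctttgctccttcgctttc

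Pfkl: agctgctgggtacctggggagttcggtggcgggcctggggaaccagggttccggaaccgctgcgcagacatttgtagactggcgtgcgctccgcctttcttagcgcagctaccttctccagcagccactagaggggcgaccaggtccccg

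The Ldha stretch lies at chr7:46845624-46845773 on the plus strand, with matches starting 145 and 48 bases before the start site, and another that begins 34 bases before it runs past the end of the stretch. The Bnip3 stretch lies at chr7:138909537-138909686 on the minus strand, with 1 match 108 bases before the start. The Aldoa stretch lies at chr7:126799285-126799434 on the minus strand, with 1 match 126 bases before the start. The Pgk1 stretch lies at chrX:106186920-106187069 on the plus strand, with matches 150 and 131 bases before the start. The Pfkl stretch lies at chr10:78009838-78009987 on the minus strand. The stretches of Ldha, Aldoa and Pfkl lie upstream of the RefSeq start used but inside the annotated gene, between exons, and Aldoa has another listed start farther upstream. Those of Bnip3 and Pgk1 lie outside the annotated gene.

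Among the EC subtypes, the aerocyte-like cells had the largest glycolysis ratio of the subtypes with at least 10 cells in each library. Their 19 glycolysis members summed to 1224 CPM in normoxia and to 3557 CPM in hypoxia (ratio 2.91, 2.66 to 3.18). General capillary-like cells went from 1092 to 2445, a ratio of 2.24 (2.13 to 2.35). Most of their hypoxia cells lay in clusters with few normoxia cells, set out below, and this ratio was not computed without those clusters. Venous-like cells had a ratio of 1.52 (1.25 to 1.83) and arterial-like cells one of 1.51 (1.17 to 1.94). In normoxia the 4 subtypes lay between 1092 and 1489 CPM, so the spread between subtypes was wider in the hypoxia library, from 1750 to 3557. The difference between subtypes was not tested. Without the deepest aerocyte-like hypoxia cell, which held 4.62% of their UMIs, the aerocyte-like ratio was 2.92. The 9 other HIF targets had ratios of 1.90 (1.64 to 2.20) in aerocyte-like, 1.35 (1.25 to 1.46) in general capillary-like, 1.72 (1.31 to 2.24) in venous-like and 1.44 (0.964 to 2.13) in arterial-like cells. The immediate-early genes summed to 15034 and 8929 CPM in aerocyte-like cells and to 23796 and 7035 CPM in general capillary-like cells, and their part in the difference between the subtypes was not tested.

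**Figure D2:**
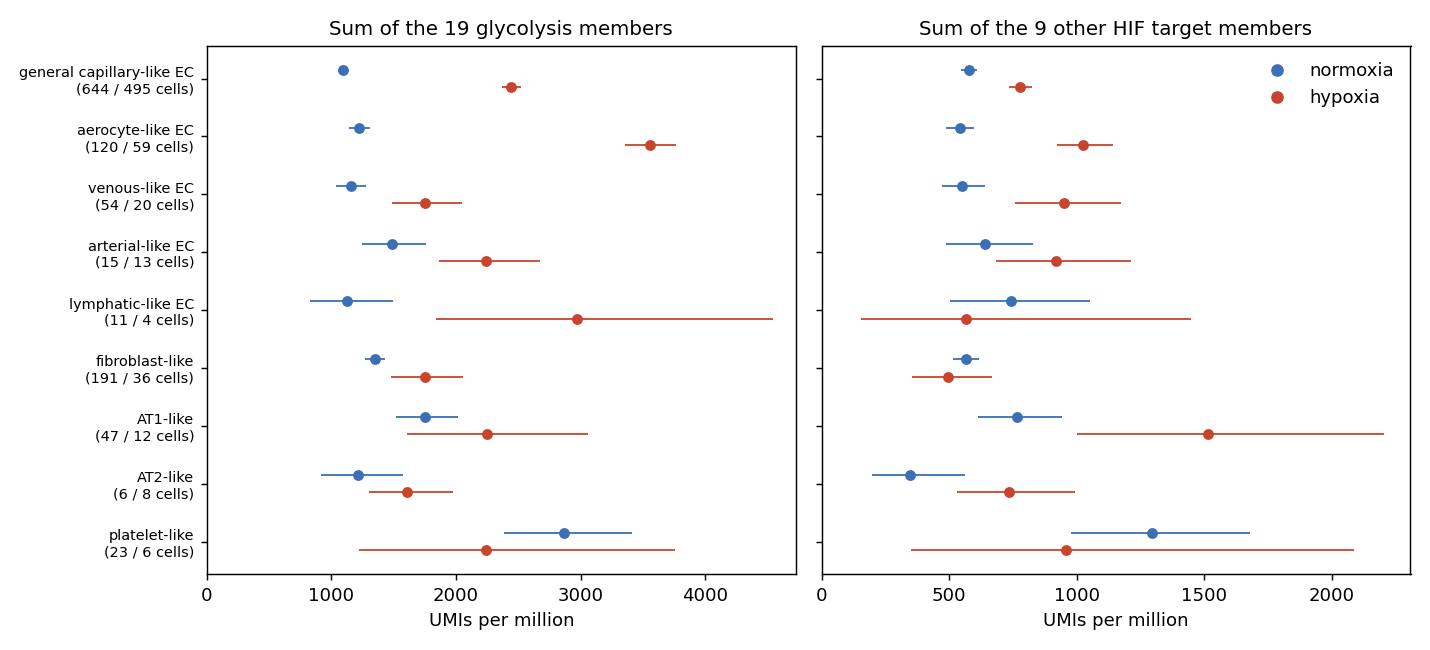
Summed level of the 19 glycolysis members (left) and the 9 other HIF target members (right) in CPM, by cell set, in normoxia (blue) and hypoxia (red). Bars are 95% exact Poisson intervals. Labels give normoxia and hypoxia cells. The glycolysis intervals of the libraries do not overlap in general capillary-like, aerocyte-like, venous-like, arterial-like, lymphatic-like and fibroblast-like cells, and they overlap in AT1-like, AT2-like and platelet-like cells.

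In general capillary-like cells, 24 members had at least 50 UMIs. Of these, 13 passed the fold upwards, against a background of 9.77% of 7809 genes, and 3 (Ddit4, Pdk1 and Pfkfb3) downwards, against 10.7%. Bnip3 had 34 and 135 UMIs (ratio 6.07, 4.14 to 9.12) and Pfkl 79 and 165 (3.19, 2.43 to 4.23). Ldha had 253 and 515 (3.11, 2.67 to 3.63) and Pkm 205 and 391 (2.92, 2.46 to 3.47). Pgk1, with 127 and 83 UMIs, had a ratio of 0.999. Of the lower members, Ddit4 had 103 and 42 UMIs (0.624, 0.425 to 0.901) and Pfkfb3 60 and 26 (0.663, 0.401 to 1.07). Pdk1 in normoxia stood at 36.1 CPM in these cells, with 87 UMIs, and at 1.42 in aerocyte-like cells, with 1 UMI. In hypoxia the general capillary-like level was 14.6, a ratio of 0.404 (0.244 to 0.646). Across the 9 EC-like clusters shared by the libraries, the Pdk1 ratio was above 1 in 5. Its interval lay above 1 in 1 of them and below 1 in 0.

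In aerocyte-like cells, 14 members had at least 50 UMIs, 9 passed the fold upwards, against a background of 8.59% of 3669 genes, and none downwards, against 10.5%. Aldoa went from 246 to 1163 CPM, with 173 and 392 UMIs, a ratio of 4.72 (3.94 to 5.68). Ldha went from 82.6 to 489, with 58 and 165 UMIs, a ratio of 5.93 (4.37 to 8.14). Bnip3 went from 32.7 to 279, with 23 and 94 UMIs, a ratio of 8.52 (5.35 to 14.1). These 3 ratios exceeded those of the general capillary-like cells, although the Bnip3 intervals overlap. The next 3 members were below the 50-UMI minimum, are not among the 14 and are given after their values were seen. Pfkl, with 7 and 36 UMIs, had a ratio of 10.7 (4.70 to 28.5). Pdha1 had 27 and 4 UMIs, a ratio of 0.309 (0.0785 to 0.886). Slc2a1 had 0 and 4 UMIs, and the lower limit of its ratio was 1.38.

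**Figure D3:**
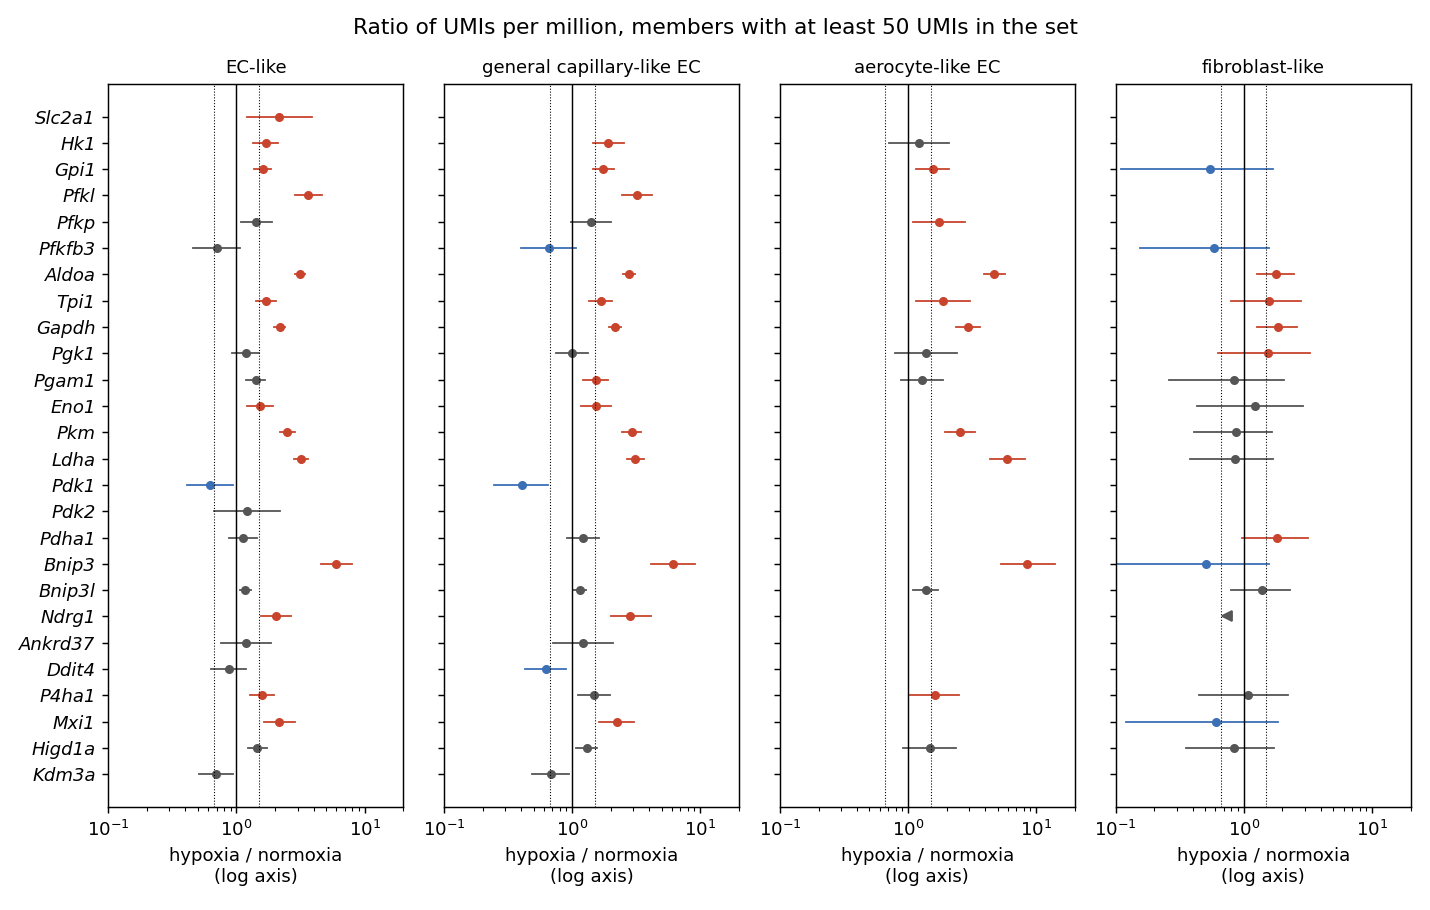
Ratio of the hypoxia to the normoxia level, on a log axis, for the members with at least 50 UMIs in EC-like, general capillary-like, aerocyte-like and fibroblast-like cells. Bars are 95% exact binomial intervals, red marks ratios of at least 1.5, blue those at or under 1/1.5 (dotted lines), and the triangle is the upper bound for Ndrg1, which had 0 hypoxia UMIs in fibroblast-like cells. Of the members plotted, Bnip3 had the largest ratio in EC-like (5.98), general capillary-like (6.07) and aerocyte-like (8.52) cells.

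In venous-like cells, Aldoa (46 and 39 UMIs, ratio 2.95, 1.87 to 4.62) and Ldha (57 and 31, ratio 1.89, 1.18 to 2.98) were the 2 of 5 members with at least 50 UMIs that passed the fold. The background there was 14.3% of 1436 genes. Below that minimum, and given after their values were seen, P4ha1 had 13 and 15 UMIs (ratio 4.01, 1.78 to 9.16) and Higd1a 14 and 14 (3.48, 1.54 to 7.87). Gapdh (1.24) and Pkm (0.907) had intervals that include 1. In arterial-like cells Aldoa had 35 and 43 UMIs, a ratio of 2.05 (1.28 to 3.30), and Ldha 21 and 13 UMIs, a ratio of 1.03. Ndrg1 stood out among the subtypes by its normoxia level. It was 20.7 CPM in general capillary-like, 12.8 in aerocyte-like, 99.4 in venous-like and 335 in lymphatic-like cells, the last with 14 UMIs in 7 of 11 cells.

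The higher glycolysis level was spread over many capillary cells. With each cell thinned to 1000 UMIs, the median general capillary-like cell held 1 glycolysis UMI in normoxia (604 cells) and 2 in hypoxia (391 cells). At least 3 such UMIs were held by 10.3% of normoxia and 46.0% of hypoxia cells. Thinning left out 40 and 104 shallower cells, and without it the shares were 62.9% and 72.1%, at median depths of 3610 and 2262 UMIs. In aerocyte-like cells the thinned medians were 1 and 3, and the shares 12.6% and 59.6%, against 77.5% and 88.1% unthinned at 6113 and 4999 UMIs. In fibroblast-like cells the thinned median was 1 in each library.

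**Figure D4:**
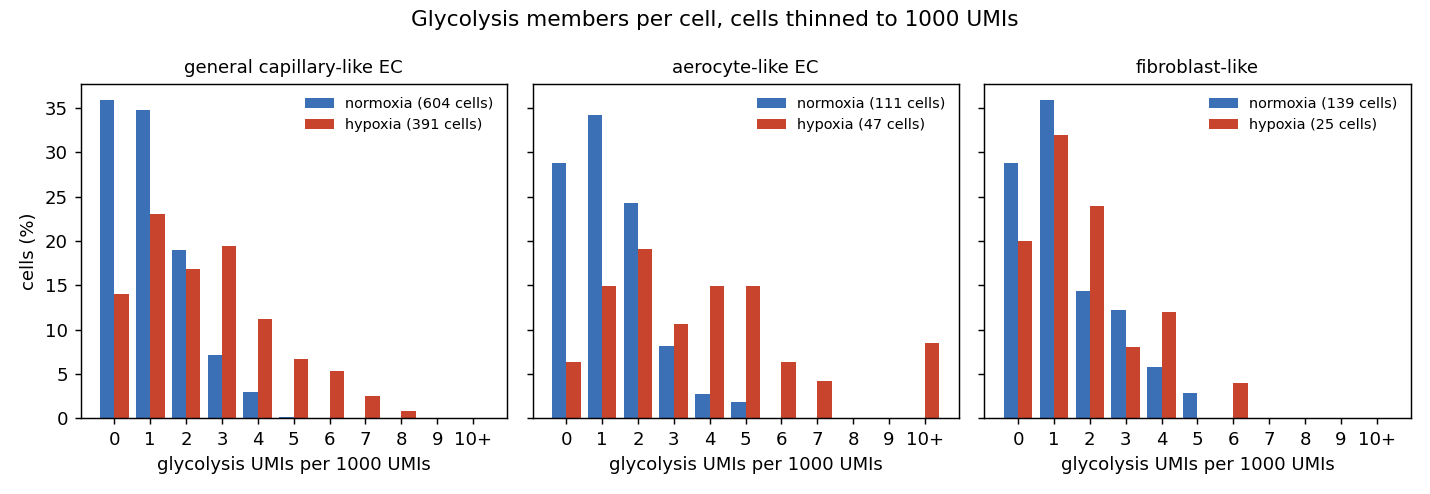
Share of cells (%) by the number of UMIs of the 19 glycolysis members per 1000 UMIs, after thinning each cell to 1000 UMIs, in normoxia (blue) and hypoxia (red) for general capillary-like, aerocyte-like and fibroblast-like cells. The last bar holds cells with 10 or more. At least 3 were held by 46.0% of hypoxic and 10.3% of normoxic general capillary-like cells, and by 24.0% and 20.9% of fibroblast-like cells.

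The libraries were spread unevenly over the clusters. Of the general capillary-like clusters, 3 came mostly from hypoxia, with 177, 126 and 65 hypoxia cells beside 3, 10 and 8 normoxia cells. In that order these 3 clusters had 7, 3 and 4 general capillary markers and median depths of 4992.5, 1049 and 876 UMIs. The first and last of the 3 had Ntrk2, Cd74 and H2-DMa, an MHC class II gene, among their leading genes. Among the 9 shared EC-like clusters, one of these 3 included, the glycolysis ratio was above 1 in 9, with an interval above 1 in 7, and ran from 1.07 to 4.85. The lowest was in the cluster led by Lpl and Hey1, where 12 hypoxia cells stood at 1145 and 169 normoxia cells at 1071 CPM. The highest was in an aerocyte-like cluster led by AW112010 and Enho, at 1126 CPM in normoxia and 5457 in hypoxia. That cluster was shallow, with 25 normoxia and 20 hypoxia cells and a median of 1081 UMIs per cell. Ldha had a ratio above 1 in 9 of 9 clusters and an interval above 1 in 7. Without the 3 hypoxia-led clusters, the EC-like glycolysis ratio was 2.14 (2.03 to 2.26).

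**Figure D5:**
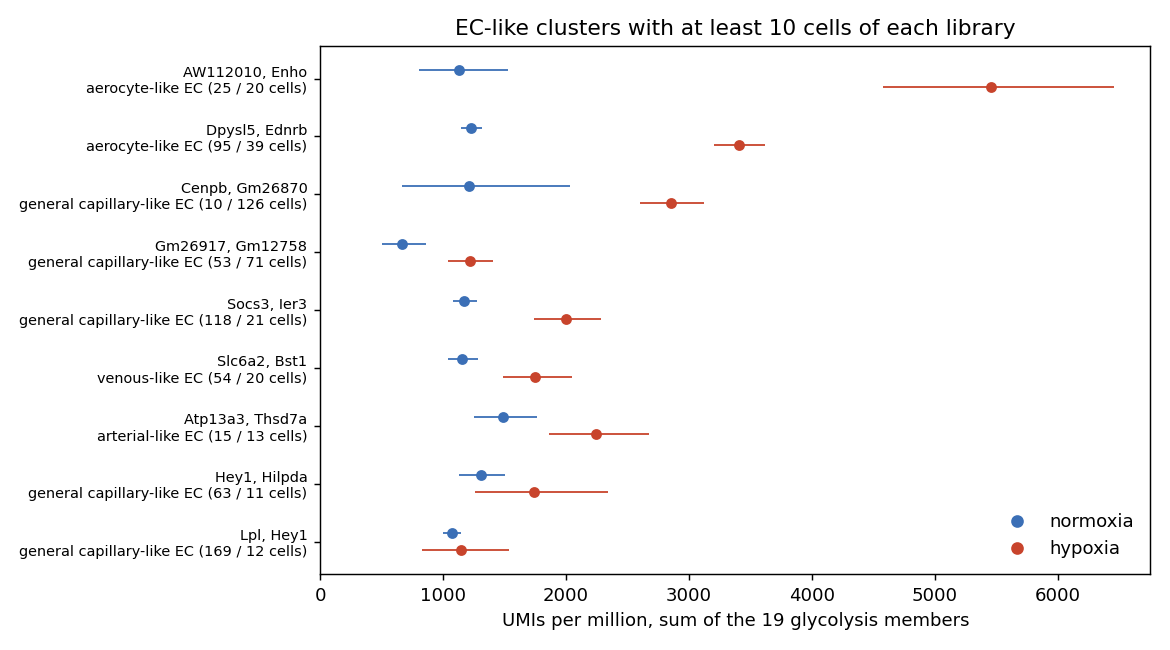
Summed level of the 19 glycolysis members in CPM in the 9 shared EC-like clusters, named by a pair of leading genes and ordered by ratio, in normoxia (blue) and hypoxia (red). Bars are 95% exact Poisson intervals, and labels give normoxia and hypoxia cells. The hypoxia values run from 1145 to 5457 and the normoxia values from 667 to 1489.

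The immediate-early genes were lower in hypoxia, and the members were also set out by the share of these genes within general capillary-like cells. Among cells with under 1% immediate-early UMIs (266 normoxia and 428 hypoxia cells), the glycolysis ratio was 2.34 (2.18 to 2.52). It was 2.14 at 1 to 3% and 1.71 (1.44 to 2.02) above 3%, where 17 hypoxia cells remained. The hypoxia level fell over these bins, at 2493, 2357 and 1897 CPM. The bins were not split by cluster, so the immediate-early share and the cluster cannot be told apart here. The normoxia level changed little over the bins, at 1065, 1102 and 1111 CPM. Ddit4 behaved otherwise. Its normoxia level was 10.2, 39.7 and 75.6 CPM over the bins, and its EC-like ratio of 0.876 became 2.35 (1.28 to 4.56) in EC-like cells under 1%, and 1.68 pooled over the shared clusters. In the same EC-like cells under 1%, the ratio of Bnip3 was 5.39 and that of Pdk1 0.790 (0.443 to 1.41). In general capillary-like cells under 1%, the ratio was 1.95 (0.884 to 4.72) for Ddit4, an interval that includes 1. It was 0.405 (0.198 to 0.798) for Pdk1 and 8.02 (4.21 to 17.2) for Bnip3 in these cells.

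In fibroblast-like cells the glycolysis members summed to 1349 and 1751 CPM, a ratio of 1.3 (1.09 to 1.54) that became 0.962 when libraries were scaled by the median ratio over genes. That scaling shifts fibroblast-like values by 0.43 on the log2 scale and EC-like values by 0.06. The libraries filled different fibroblast-like clusters. One cluster held 95 normoxia and 33 hypoxia cells, and the other clusters, led by Fat3 and by Scara5, held 82 and 14 normoxia cells beside 2 and 1 hypoxia cells. Within the first cluster the glycolysis ratio was 1.16 (0.920 to 1.46). Only 149 glycolysis UMIs came from the 36 hypoxia cells, and the deepest cell held 10.5% of their UMIs. The immediate-early genes summed to 22830 and 2892 CPM in fibroblast-like cells, and their part was not tested. The 9 other HIF targets summed to 565 and 494, a ratio of 0.874 (0.622 to 1.2).

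Of 17 members with at least 50 UMIs in fibroblast-like cells, 5 passed the fold upwards, against a background of 17.4% of 3215 genes, and 5 downwards, against 31.8%. The higher members were Aldoa (237 and 43 UMIs, ratio 1.78, 1.26 to 2.47), Gapdh (198 and 37, ratio 1.84, 1.26 to 2.62), Pdha1 (1.82), Tpi1 (1.56) and Pgk1 (1.54), and the intervals of the last 3 include 1. Ldha, with 104 and 9 UMIs, had a ratio of 0.850 (0.378 to 1.68). Several members had a higher level in fibroblast-like than in EC-like cells of the normoxia library. Hk2 stood at 39.5 CPM (27.2 to 55.5) there and at 0.560 in EC-like cells, Ldhb at 55.1 and 1.68, Slc2a1 at 32.3 and 6.44, and Bnip3 at 69.4 and 19.3. Hk1 showed the reverse, at 10.8 and 44.3, and Ddit4 had no UMI in fibroblast-like cells and stood at 35 in EC-like cells. Hk2, Ldhb and Ndrg1 had 33, 46 and 51 normoxia UMIs and 0 hypoxia UMIs. Their normoxia levels were 1.12, 1.56 and 1.73 times the hypoxia level of 3 UMIs, the floor used here. These folds are not bounds of a counting interval. Hk2 and Ldhb are below the 50-UMI minimum. Ndrg1 reached it through its normoxia UMIs alone, as did the lower members Bnip3 and Gpi1. The fibroblast-like cells held 835399 UMIs in normoxia and 85072 in hypoxia. The counting interval of the Hk2 ratio reaches 1.16 and so includes 1.

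Epithelial cells were few after the depletion. In AT1-like cells (47 and 12), which line the alveolus, Aldoa had 43 and 17 UMIs (ratio 2.52, 1.35 to 4.51) and Bnip3l 52 and 18 (2.21, 1.22 to 3.84). These were the only 2 AT1-like members with at least 50 UMIs, against a background of 16.4% of 383 genes past the fold upwards. The AT1-like glycolysis sum was 1751 and 2246 CPM, a ratio of 1.28 (0.889 to 1.81). The 9 other HIF targets had 87 and 27 UMIs there, a ratio of 1.98 (1.24 to 3.08). In AT2-like cells (6 and 8), the surfactant producers, the glycolysis ratio was 1.33 (0.943 to 1.89). Their ratio for the 9 other HIF targets was 2.12 (1.17 to 4.05), from 16 and 42 UMIs. A single cell held 62.5% of those UMIs in normoxia and 57.1% in hypoxia. The transporter Slc2a3, scarce in EC-like cells, was at 139 CPM in platelet-like cells of normoxia, with 6 UMIs. The higher Ddit4 of cells outside the EC-like clusters, 30 and 23 UMIs with a ratio of 5.90, came mostly from 1 cell, which held 73.9% of the hypoxia UMIs.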

How the data were processed

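The deposited values are raw UMI counts for every gene in every cell, made by the authors with Cell Ranger against mm10 (version 6.1.2 per the file headers) for barcodes called as cells, without normalization. The labels also name Seurat. The deposited matrices held 2223 normoxia and 809 hypoxia cells with at least 501 UMIs each, and 1 barcode occurred in both libraries but not among kept cells. Barcodes were kept when they had between 200 and 4000 genes and no more than 5% of UMIs from mitochondrial genes, limits taken from the study's text, which names more than one upper limit on genes. Doublets were not called.

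Counts were normalized, the members left out of the 2000 variable genes, and both libraries clustered together (scanpy 1.11.5, 30 components, 15 neighbours, resolution 2, Python 3.11.15). Clusters were named from fixed marker lists when at least 3 markers were detected in 25% of cells. The rule that splits EC-like clusters into subtypes was set after the clusters were seen. Under it, general capillary-like was the name of the remaining EC-like clusters, neither proliferating nor of another subtype, with at least 3 of its markers detected. UMIs were summed per library and cell set and given per 1000000 (CPM). Intervals are 95% exact Poisson (levels) and exact conditional binomial (ratios). The ratio intervals were tried only on counts simulated with Poisson error, which leaves out the spread between cells. With 1 library per condition no test was possible, and genes were described by a fold of 1.5 and a minimum of 50 UMIs. All 35 members were accounted for in EC-like cells, with values for those past the fold and for a fixed set of others. The members and lists were chosen with earlier results of these data known. A count of 3 UMIs sets the floor for values of 0.

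UMIs were not divided by gene length, and levels of different genes were not ordered. Gapdh, Aldoa, Ldha, Pkm, Eno1, Tpi1 and Pgk1 have processed pseudogenes or near-identical relatives, so their counts are uncertain. Promoters came from RefSeq. The alternatives tried were other scalings, limits on genes and mitochondrial UMIs, clusterings and UMI minimums, and, after seeing the data, subsets of cells.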

Additional observations from a re-analysis of the deposited data

Results flagged for a closer look

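The fibroblast-like ratio was below 1 and the EC-like ratio above 1 for 4 members called in both classes, and the difference between the cell classes was not tested, since each class has 1 library per condition. Bnip3 had a ratio of 0.508 in fibroblast-like cells (58 and 3 UMIs) and 5.98 in EC-like cells. Gpi1 had 0.546 (54 and 3 UMIs) against 1.60, and Mxi1 had 0.601 (49 and 3 UMIs) against 2.15. Ndrg1 had a ratio of 0 in fibroblast-like cells (51 and 0 UMIs), against 2.04. Its normoxia level there was 1.73 times the level of 3 hypoxia UMIs. The fibroblast-like intervals of Bnip3 (0.102 to 1.56), Gpi1 (0.109 to 1.68) and Mxi1 (0.120 to 1.86) include 1 and rest on 3 hypoxia UMIs each. Of 17 members, 5 were at least 1.5-fold lower in fibroblast-like cells, near the background of 31.8% of all genes there. A single cluster held 33 of the 36 hypoxia cells and 95 of the 191 normoxia cells, and the 12 immediate-early genes had a summed ratio of 0.127.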

How the results depend on the processing

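The direction of the summed ratios was the same in EC-like cells under every alternative that gave a value, from 2.14 to 2.37 for the glycolysis members and from 1.39 to 1.63 for the other HIF targets. The glycolysis ratio was 2.37 as a mean over cells, 2.37 with up to 6000 genes per cell, 2.15 pooled over the EC-like clusters shared by the libraries and 2.14 without the 3 hypoxia-led clusters. The pooled HIF target ratio was 1.63. The number of members at least 1.5-fold higher ran from 12 to 18 around 14. The number of members with enough UMIs also changed between alternatives. The share over all genes was not counted in the alternatives, for either direction. Members that lost the fold in some alternative were Eno1 (lowest 1.17, pooled), Hk1 (1.39, pooled), Gpi1 (1.41, pooled), Ndrg1 (1.44, mean over cells) and P4ha1 (1.41, under 1% immediate-early UMIs). Slc2a1 gave a value in only 7 alternatives, the lowest 1.63 as a mean over cells. Pdha1, at 1.13, was 0.711 pooled and 0.622 without the hypoxia-led clusters. The number at least 1.5-fold lower, 1, was 3 as a mean over cells, 2 with at least 1 UMI in each library, 2 without the hypoxia-led clusters, and 0 when pooled over shared clusters, with at least 200 UMIs, and in cells with under 1% immediate-early UMIs. Pdk1, at 0.625, turned to 1.54 pooled over shared clusters. The fibroblast-like glycolysis ratio of 1.3 became 0.962 with median-ratio scaling and 1.05 with up to 10% mitochondrial UMIs. That scaling used only genes with at least 20 UMIs in each library. The causes were not tested, apart from the higher minimum, which leaves fewer genes. Arterial-like cells could not be named with up to 10% mitochondrial UMIs or at resolution 1 and then gave no value. The subsets without hypoxia-led clusters and with under 1% immediate-early UMIs were chosen after seeing the data. No paired analysis was possible because a single library stands for either condition. Depth limits the fibroblast-like hypoxia values to 85072 UMIs, where 3 UMIs equal 35.3 CPM.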

Other observations

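Genes next to the members were less uniform in EC-like cells. Of 31 other HIF targets that are no member, 18 had at least 50 UMIs, with a median ratio of 0.999. Of the 18, 3 were at least 1.5-fold higher in hypoxia, against a background of 7.90% of 8738 genes. Another 5 were at least 1.5-fold lower, against 9.95%. The higher genes were P4ha2, a collagen prolyl hydroxylase subunit (66 and 74 UMIs, ratio 1.92), the cytokine Mif (216 and 190 UMIs) and the oxidase Ero1l (149 and 131 UMIs), both at 1.5. The lower genes included the angiogenic factor Vegfa (1705 and 647 UMIs, ratio 0.649) and Hilpda, a lipid droplet protein (1863 and 432 UMIs, ratio 0.397). Summed, the 31 genes went from 1830 to 1261 CPM, a ratio of 0.689 (0.658 to 0.721), while the members' HIF target sum had a ratio of 1.45. Vegfa and Hilpda weigh heavily in the sum of the 31 genes. They gave 1705 and 1863 of its 6534 normoxia UMIs, and 647 and 432 of its 2631 hypoxia UMIs. A sum without them was not computed. In aerocyte-like cells the sum of the 31 genes had a ratio of 0.985 (0.877 to 1.10), and in general capillary-like cells 0.612 (0.580 to 0.645).

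The pathways that branch from glycolysis moved little by comparison. The 7 genes of the pentose phosphate pathway, which makes NADPH and ribose, all had a ratio between 1.09 and 1.3 in EC-like cells, with a median of 1.26. The 20 genes of the TCA cycle and pyruvate dehydrogenase had a median ratio of 1.17. Of them 2, Mdh2 and Suclg2, were at least 1.5-fold higher, near the background of 7.90% of 8738 genes.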
